A study of Homo sapiens with 12 samples.

Results

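COLO858 and MMACSF are established melanoma cell lines with an activating BRAF mutation, and the comparison described here was made to find where their transcripts responded differently to 48 h of vemurafenib, an inhibitor of the mutant kinase. It rests on 8 of the 12 RNA-seq libraries of the series, 2 replicates of each line treated with DMSO, the solvent, and 2 of each line treated with 0.2 μM vemurafenib for 48 h. The other 4 libraries, taken at 24 h, were used to show when a difference arose and in an alternative fit of all 12 libraries. For each gene the change of COLO858 (48 h minus DMSO) minus the change of MMACSF was taken on log2(FPKM + 1), where FPKM (fragments per kilobase of transcript and library size) is the deposited measure of expression, and this quantity is called the line difference. A positive line difference means that COLO858 moved up more, or down less, than MMACSF. Of 23273 genes listed under the same symbol in the tables of both lines, small RNA genes were left out and the 13022 with a mean of at least 1 FPKM in any of the 4 groups were tested.

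Both lines were plated in 10-cm dishes, 2 replicates of each, and treated on the next day. COLO858 cells were grown in RPMI and MMACSF cells in DMEM/F12 medium, and how long the DMSO cultures were kept is not given. Each line comes from a single patient, so a difference between the lines cannot be told apart from a difference in genotype, medium or table. The values of each line stand in a table of their own, and whether the tables were scaled together is not stated. Levels were therefore compared within a line only, and across lines only the changes were set against each other. Whether the replicate plates came from separate passages or days is not given, so the p-values measure the spread between these libraries, which may be technical. In RNA from whole cultures, fewer cells of a kind and less RNA per cell cannot be told apart.

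Mutant BRAF signals through the kinases MEK and ERK, which drive the cyclins that start the cell cycle and also switch on their own inhibitors, among them the sprouty and DUSP genes. When the pathway is blocked, E2F target genes, which copy DNA, and later the mitotic genes, which are read from promoters bound by the DREAM complex and by B-MYB with FOXM1, are transcribed less, and cells leave the cycle. Melanocytes arise from the neural crest, as do the Schwann cells that wrap nerves, and melanoma cells can switch between a pigmented program and programs with neural crest, glial or matrix genes. The AP-1 factor JUN, the receptor NGFR and secreted matrix proteins are well-known members of the latter.

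The 8 libraries held between 11529 and 11806 genes at 1 FPKM or more. Replicates correlated at 0.984 to 0.987 across the genes tested, which is a correlation across genes and not across independent samples. Read depth is not part of the tables. The 8 melanocytic markers reached 1 FPKM in at least 1 library each, with MLANA and TYR below 1 FPKM in the 4 COLO858 libraries, and their summed level lay at 1007 to 1021 FPKM in COLO858 and 11168 to 11381 FPKM in MMACSF under DMSO, and at 4550 to 4621 FPKM and 16838 to 17560 FPKM after 48 h. Markers of endothelial cells (7 of 7) and of T, B and myeloid cells (7 of 8, all but LYZ) stayed below 1 FPKM in all 8 libraries. Of 8 keratinocyte and epithelial markers 4 did so (KRT5, KRT14, KRT1 and EPCAM), and the sum of all 8 lay at 70.9 to 81.1 FPKM under DMSO and 20.6 to 21.6 FPKM after 48 h in COLO858 and at 66.2 to 67.0 FPKM and then 57.3 to 60.5 FPKM in MMACSF, with KRT18 at means of 61.3 and then 9.04 FPKM in COLO858 and CDH1 at 23.9 and then 36.3 FPKM in MMACSF.

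The line difference passed an adjusted p of 0.01 (limma, Benjamini-Hochberg over all genes tested) for 876 genes, 6.73% of those tested. It was positive for 504 genes, 3.87%, and negative for 372 genes, 2.86%. With the replicate number within each line as a block, 2213 genes passed positively (17.0%) and 2260 negatively (17.4%), 34.3% together, and all 876 were among them. Every one of the 876 differences had the same sign in replicate number 1 alone and in replicate number 2 alone. The line difference is the mean of these 2 values, so this follows largely from the choice of genes that passed and is no separate support. The counts were lower when 1 library was left out, between 209 and 334 positive and between 118 and 222 negative, with the lowest counts without a MMACSF 48 h library (209 positive without replicate 1, 118 negative without replicate 2). Of the 153 named genes that passed, 87 also passed in all 8 fits that left out 1 library, and below the number of these fits is given for each gene that passed in fewer. In the plot of both responses, the called genes lie away from the diagonal on all sides.

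**Figure D1:**
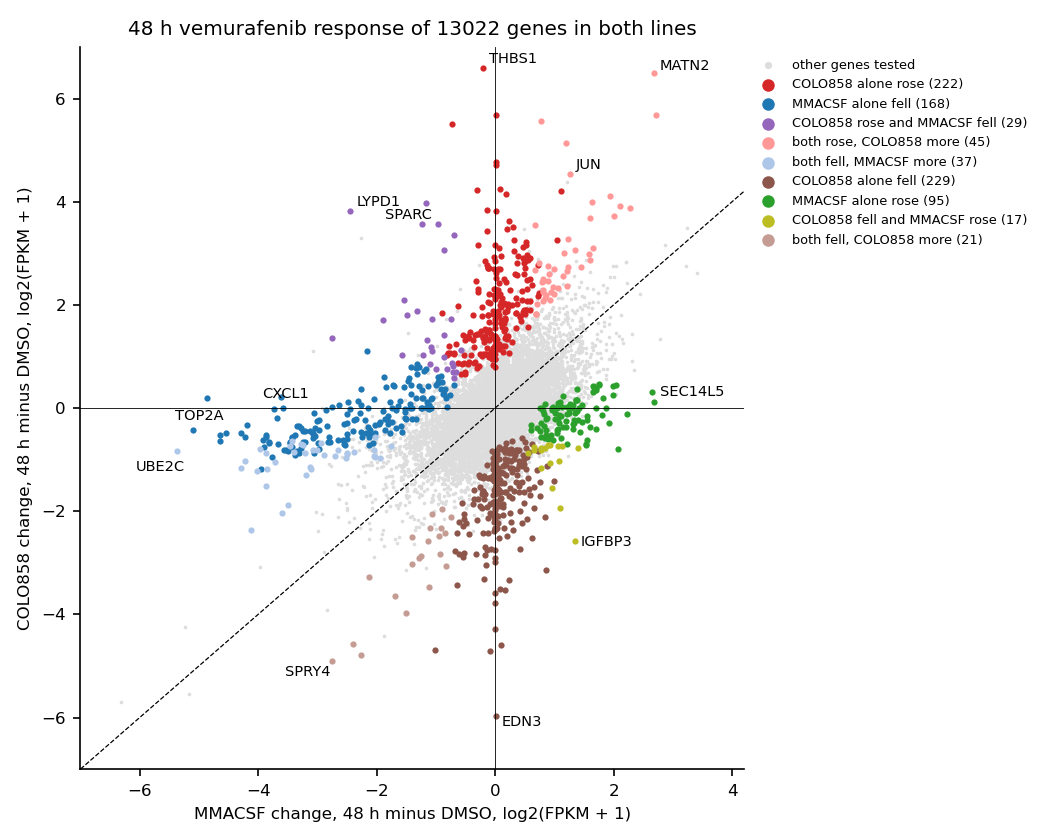
Change after 48 h of vemurafenib in MMACSF (x axis) and in COLO858 (y axis), both as 48 h minus DMSO on log2(FPKM + 1), one point per gene for the 13022 genes tested, coloured by the class of the 876 genes whose line difference passed, with the 3 smallest classes (9, 3 and 1 genes) drawn in grey among the other genes. Genes that COLO858 alone raised or lowered lie along the vertical axis at changes near 0 in MMACSF, and genes that MMACSF alone lowered stretch to the left at COLO858 changes slightly below 0.

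Which line moved was read from the tests within each line, in which 2463 genes (18.9%) passed in COLO858, 1175 upward (9.02%) and 1288 downward (9.89%), and 1993 (15.3%) in MMACSF, 951 upward (7.3%) and 1042 downward (8.0%). Among the 504 positive differences, 222 belonged to genes that rose in COLO858 alone, 168 to genes that fell in MMACSF alone, 45 to genes that rose in both lines but more in COLO858, 37 to genes that fell in both but more in MMACSF and 29 to genes that rose in COLO858 and fell in MMACSF. Among the 372 negative differences, 229 belonged to genes that fell in COLO858 alone, 95 to genes that rose in MMACSF alone, 21 to genes that fell in both but more in COLO858 and 17 to genes that fell in COLO858 and rose in MMACSF. For 3 genes with a positive and 9 with a negative difference neither line passed on its own, and AIF1L, an actin-binding protein gene, was the 1 gene that rose in both lines but more in MMACSF (2 of 8 fits). The class sizes moved with the fit. With 1 library left out, the 222 and 168 became 108 to 154 and 76 to 148, the 45, 37 and 29 became 4 to 22, 4 to 14 and 7 to 20, the 229 and 95 became 89 to 165 and 21 to 38, and the 21 and 17 became 2 to 10 and 2 to 6. With the block these classes held 636, 504, 374, 430, 241, 873, 578, 327 and 298 genes in the same order. "Alone" says only that the change of the other line missed the threshold: with the block, 144 of the 222, 65 of the 168, 177 of the 229 and 62 of the 95 genes stayed in these classes, and the others passed in the second line too.

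Many of these genes were barely detected in the line that did not move. Of the 229 genes that fell in COLO858 alone, 135 (59.0%) were below 1 FPKM in both groups of MMACSF, and so were 71 (32.0%) of the 222 that rose in COLO858 alone. The reverse held for 49 (51.6%) of the 95 genes that rose in MMACSF alone and for 31 (18.5%) of the 168 that fell there alone. For such genes the line difference is the change of 1 line, and no response of the other could be measured at these levels. Where a gene reached the minimum only in the group where it was high, its entry into the test depended on that level. The shares of the lists below depend in part on this.

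**Figure D2:**
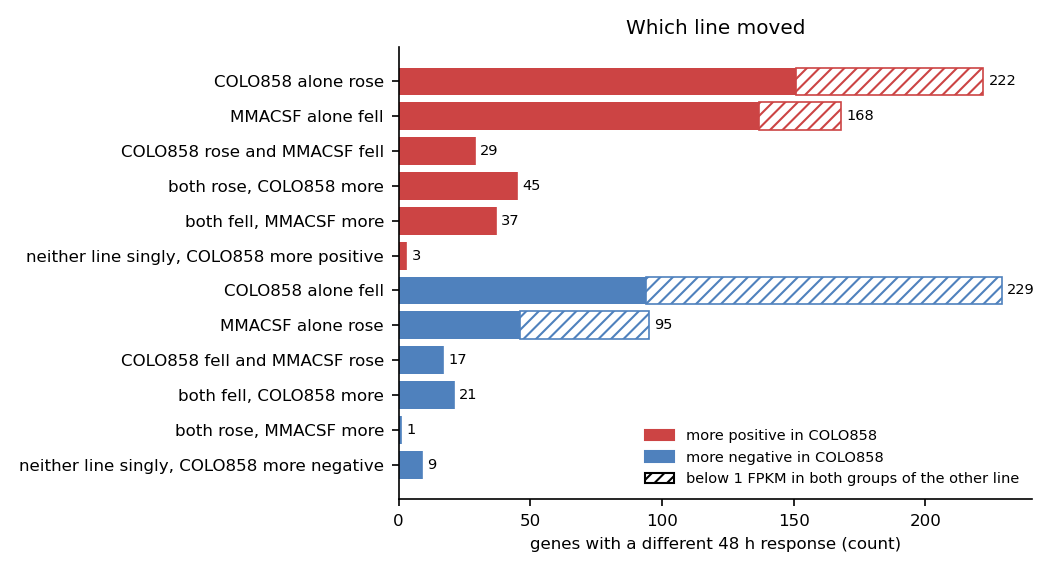
Number of genes in each class of the 876 whose line difference passed, with positive and negative differences apart; the hatched part of a bar counts genes below 1 FPKM in both groups of the line that did not move. The longest bars are the 229 genes lowered and the 222 raised in COLO858 alone and the 168 lowered in MMACSF alone.

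The largest group of related genes concerned cell division, and here, at 48 h against DMSO, MMACSF moved more. At 24 h the median line difference was −0.37 for mitotic and −0.82 for replication genes. TOP2A, a single gene whose line difference at 24 h was positive unlike these medians, then lay below its DMSO level in both lines, as set out below. Of 57 mitotic genes tested, 45 (78.9%) had a positive line difference and none a negative one that passed, against 6.73% of all genes tested. All 57 fell in MMACSF, with a median change of −3.13, while 14 fell in COLO858, with a median of −0.67; the medians over all genes tested were 0.05 and −0.00. The count was 27 without MMACSF 48 h replicate 1 and 45 without COLO858 DMSO replicate 2, and 57 with the block. Mitotic genes carry in their promoters a CHR element, the docking site of the DREAM and B-MYB complexes, often beside CCAAT boxes bound by NF-Y, whereas genes of DNA synthesis carry E2F sites. Promoters are shown for TOP2A, NUSAP1 and MKI67, mitotic genes that fell in MMACSF, and for CDC6, a DNA synthesis gene that fell there, so that the arrangements can be compared. The sequences are RefSeq's for GRCh38.p14, run from 250 bases before to 50 bases after the gene's start, and are written along the gene's strand with capitals for CCAAT boxes, for CHR elements with the letters TTTGAA and for E2F sites (the G-rich TTTGGCGC or the C-rich TTTCCCGC) on either strand. TOP2A lies at chr17:40417847-40418146 on the minus strand, NUSAP1 at chr15:41332631-41332930 on the plus strand, MKI67 at chr10:128126374-128126673 on the minus strand and CDC6 at chr17:40287629-40287928 on the plus strand.
TOP2A: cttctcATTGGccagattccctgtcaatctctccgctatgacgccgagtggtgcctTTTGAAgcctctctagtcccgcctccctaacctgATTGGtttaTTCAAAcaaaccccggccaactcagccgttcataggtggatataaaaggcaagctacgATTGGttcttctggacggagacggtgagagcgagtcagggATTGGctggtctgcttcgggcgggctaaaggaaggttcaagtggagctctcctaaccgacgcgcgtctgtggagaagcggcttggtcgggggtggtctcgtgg
NUSAP1: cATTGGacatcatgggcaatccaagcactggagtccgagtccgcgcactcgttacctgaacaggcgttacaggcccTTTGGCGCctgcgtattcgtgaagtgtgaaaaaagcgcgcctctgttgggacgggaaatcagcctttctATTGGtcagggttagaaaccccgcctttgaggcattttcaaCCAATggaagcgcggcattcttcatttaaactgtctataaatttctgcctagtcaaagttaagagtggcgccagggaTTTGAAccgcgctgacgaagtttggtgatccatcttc
MKI67: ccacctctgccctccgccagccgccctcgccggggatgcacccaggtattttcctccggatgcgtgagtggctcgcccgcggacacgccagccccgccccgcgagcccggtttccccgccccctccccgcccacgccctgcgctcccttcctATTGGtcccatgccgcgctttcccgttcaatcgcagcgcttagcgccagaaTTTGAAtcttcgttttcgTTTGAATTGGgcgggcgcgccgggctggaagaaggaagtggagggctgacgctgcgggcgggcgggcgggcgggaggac
CDC6: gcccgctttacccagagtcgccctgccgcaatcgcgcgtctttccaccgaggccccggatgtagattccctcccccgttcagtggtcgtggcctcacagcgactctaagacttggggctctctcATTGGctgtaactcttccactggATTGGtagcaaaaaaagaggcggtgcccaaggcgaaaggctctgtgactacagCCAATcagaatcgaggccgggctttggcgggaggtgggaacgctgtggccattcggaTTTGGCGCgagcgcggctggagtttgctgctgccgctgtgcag

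In the TOP2A promoter 2 CHR elements stand among 4 CCAAT boxes, in NUSAP1 1 CHR element lies just downstream of the start and a G-rich E2F site lies upstream among 3 CCAAT boxes, and in MKI67 the second of 2 CHR elements shares 1 letter with a CCAAT box. CDC6 has no CHR element and carries a G-rich E2F site just downstream of its start and 3 CCAAT boxes before it. Over the list, 36 of the 50 mitotic genes with a promoter in the table had the letters of a CHR element (72.0%) and 39 those of a CCAAT box (78.0%), against 15.4% and 35.7% of all 27305 promoters and 9.66% and 36.8% of the 10192 found for genes tested. Of the 42 genes of DNA replication with a promoter, 1 had a CHR element (2.38%), while 9 had the G-rich E2F site (21.4%) and 11 the C-rich one (26.2%), against 0.659% and 1.66% of all promoters and 1.11% and 2.61% of those of genes tested. The CHR letters were present in 37.1% of 132 promoters of genes that fell in MMACSF alone and in 14.9% of 168 promoters of genes that rose in COLO858 alone. A match of letters describes the window and is not a measured binding site.

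TOP2A (chr17:38544777-38574148, minus strand, GRCh37), the topoisomerase that untangles sister chromosomes, stood at 62.6 and 89.7 FPKM in the DMSO libraries of COLO858 and at 47.9 and 64.0 FPKM after 48 h, and at 54.0 and 70.4 FPKM and then 0.654 and 1.01 FPKM in MMACSF. The groups overlap in COLO858 and lie far apart in MMACSF. Its change was −0.43 in COLO858 (adjusted p = 0.21 by limma, and 0.0006 with the block) and −5.10 in MMACSF, a line difference of 4.67 ± 0.34 (SE, n = 2 libraries per group; limma adjusted p = 0.000227). UBE2C, which tags mitotic cyclins for destruction, fell in both lines, from 202 and 220 FPKM to 123 and 114 FPKM in COLO858 and from 168 and 169 FPKM to 3.59 and 2.64 FPKM in MMACSF. The line difference was 4.55 ± 0.20 (limma adjusted p = 4.83e-05). MYBL2 (chr20:42295659-42345135, plus strand), which encodes B-MYB itself, stood in COLO858 at 74.0 and 58.8 FPKM under DMSO and at 83.5 and 68.8 FPKM after 48 h, and went from 56.6 and 46.2 FPKM to 0.906 and 0.666 FPKM in MMACSF. Its line difference of 5.07 ± 0.26 was the highest of the list (limma adjusted p = 5.62e-05).

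MKI67, the proliferation antigen Ki-67, stood at 15.9 and 19.8 FPKM in COLO858 under DMSO and at 10.9 and 12.5 FPKM after 48 h, and at 10.0 and 11.0 FPKM and then 0.043 and 0.0852 FPKM in MMACSF, a line difference of 2.87 ± 0.23 (limma adjusted p = 0.000359). The groups of both lines are apart, and the step is small in COLO858, where it passed with the block only (adjusted p = 0.00073). NUSAP1, a spindle protein gene, behaved likewise with a line difference of 4.05 ± 0.30, and so did BIRC5 (survivin, 3.16) and FAM64A (3.20), which fell in both lines.

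Genes that copy DNA followed the same pattern at a smaller size. Of 50 replication genes tested, 21 (42.0%) had a positive line difference and none a negative one that passed, 46 fell in MMACSF and 10 in COLO858, and the median changes were −1.68 and −0.57. Without MMACSF DMSO replicate 2 or MMACSF 48 h replicate 1 the count was 8, and with the block it was 40. TK1 (chr17:76170172-76183314, minus strand), thymidine kinase, stood at 132 and 97.0 FPKM in COLO858 under DMSO and at 89.7 and 69.5 FPKM after 48 h, and went from 67.6 and 55.1 FPKM to 1.51 and 1.46 FPKM in MMACSF, a line difference of 4.13 ± 0.28 (limma adjusted p = 0.000185). RRM2, a subunit of ribonucleotide reductase, had a line difference of 4.02, and the origin-loading genes CDC6 and CDC45 had 3.16 and 3.14. The changes of these 4 genes in COLO858, between −0.68 and −0.51, passed with the block only. Of 26 DNA repair genes, 5 differed, 19.2% against 6.73% of all genes tested (11 positively and 1 negatively with the block). They were EXO1, RAD51AP1, EME1, RAD54L and FANCI, all fallen in MMACSF alone. EXO1 passed in 5, RAD51AP1 in 1, EME1 in 4, RAD54L in 7 and FANCI in 0 of the 8 fits leaving out 1 library. Between 1 and 4 of the list passed in each of those fits.

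The inhibitors of the cyclin-dependent kinases did not move as a group. CDKN1A, the p53 target p21, rose in COLO858 from 111 and 102 FPKM to 186 and 174 FPKM and fell in MMACSF from 48.3 and 44.5 FPKM to 22.0 and 23.3 FPKM, a line difference of 1.76 ± 0.17 (limma adjusted p = 0.000825). Of 29 p53 target genes tested, 3 differed, 10.3% against 6.73% of all genes tested (14 positively and 2 negatively with the block). Besides CDKN1A these were FAS (1.76, 1 of 8 fits) and PLK2 (1.46, 2 of 8 fits), both after a rise in COLO858. CDKN1B, p27, showed the other order: it rose in MMACSF from 13.2 and 13.6 FPKM to 34.1 and 35.8 FPKM, stood at 55.5 and 66.2 FPKM and then 43.9 and 54.1 FPKM in COLO858, and differed by −1.63 ± 0.22 (limma adjusted p = 0.00281; 2 of 8 fits). CDKN2C (p18) fell in MMACSF, with a line difference of 1.98 (7 of 8 fits), and CDKN2B (p15) fell in COLO858, with −1.61 (0 of 8 fits). The 11 polyadenylated histone genes tested had medians of 2.75 in COLO858 and 1.35 in MMACSF, and HIST2H2BE (1.72, 6 of 8 fits) and HIST1H2BK (1.41, 0 of 8 fits) rose in both lines but more in COLO858. Histone genes are near-identical copies, and their values are uncertain where reads were shared.

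**Figure D3:**
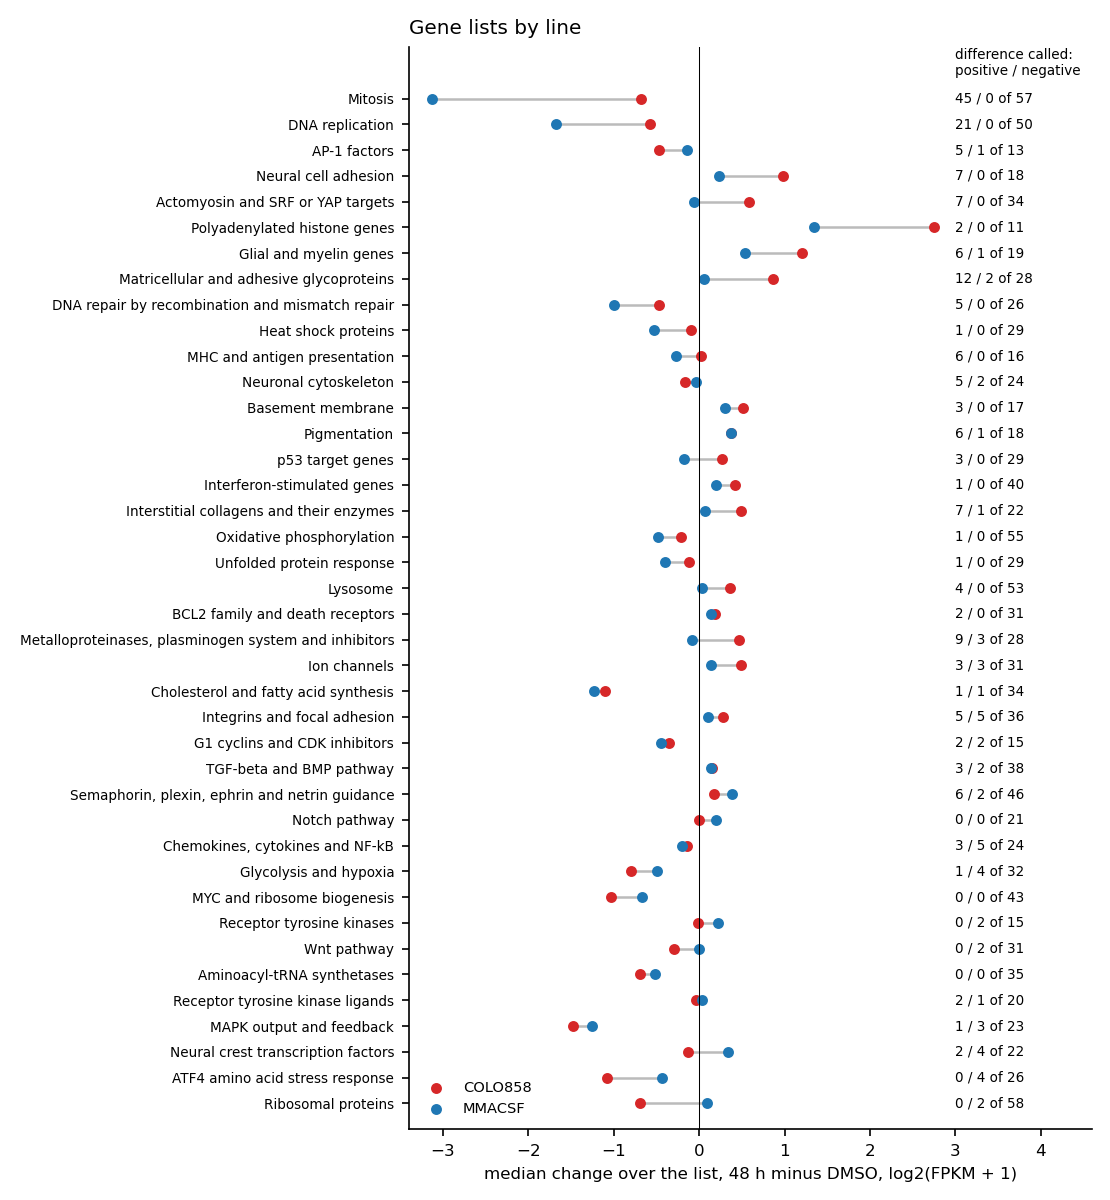
Median change after 48 h (log2(FPKM + 1), 48 h minus DMSO) of each gene list in COLO858 and in MMACSF, with the number of members whose line difference passed in the positive and in the negative direction. The mitotic list stands at −3.13 in MMACSF and −0.67 in COLO858, and the replication list at −1.68 and −0.57.

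Secreted matrix proteins were the next group, and here COLO858 moved. Of 28 matricellular and adhesive glycoproteins tested, 14 (50.0%) differed, 12 with a positive and 2 with a negative line difference. In COLO858 13 of the 28 rose and 5 fell, with a median of 0.87, and in MMACSF 3 rose and 4 fell, with a median of 0.06. Between 8 and 10 positive differences passed when 1 library was left out. THBS1 (chr15:39873280-39891667, plus strand), thrombospondin-1, an adhesive protein that also releases TGF-β from its latent form, rose in COLO858 from 1.18 and 1.31 FPKM to 209 and 221 FPKM and lay at 0.214 and 0.307 FPKM and then 0.0872 and 0.107 FPKM in MMACSF. No other gene had so large a line difference, at 6.79 ± 0.19 (limma adjusted p = 1.51e-05). NOV, a member of the CCN family, rose in COLO858 from 3.07 and 4.52 FPKM to 189 and 246 FPKM and stood at 9.60 and 11.9 FPKM and then 5.28 and 6.87 FPKM in MMACSF, a line difference of 6.25 ± 0.32. Its MMACSF change of −0.73 passed with the block only.

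SPARC (chr5:151040657-151066536, minus strand), a collagen-binding protein, moved in opposite directions, from 132 and 162 FPKM to 1560 and 1960 FPKM in COLO858 and from 347 and 418 FPKM to 185 and 206 FPKM in MMACSF, a line difference of 4.53 ± 0.24 (limma adjusted p = 6.03e-05). CYR61, another CCN protein and a target of YAP, rose in COLO858 from 2.52 and 2.23 FPKM to 57.9 and 59.1 FPKM and stood at 4.79 and 4.81 FPKM and then 6.11 and 5.08 FPKM in MMACSF, with a line difference of 3.96 ± 0.21. MATN2, a matrilin, rose in both lines, from 0.436 and 0.601 FPKM to 128 and 145 FPKM and from 9.48 and 10.0 FPKM to 66.3 and 69.7 FPKM, and differed by 3.82 ± 0.19. FN1 (fibronectin, 1.95), CTGF (1.75, 7 of 8 fits), FBN1 (fibrillin-1, 1.50, 7 of 8 fits) and VTN (vitronectin, 1.42, 1 of 8 fits) were also positive. MGP, which keeps matrix from calcifying and was on no list, rose from 0.0752 and 0.202 FPKM to 49.5 and 65.6 FPKM in COLO858, stood at 2.11 and 2.08 FPKM and then 1.97 and 2.30 FPKM in MMACSF, and differed by 5.66 ± 0.25.

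THBS2, the paralog of THBS1, went the other way. It fell in COLO858 from 725 and 723 FPKM to 64.7 and 60.2 FPKM while staying between 0.64 and 0.916 FPKM in MMACSF, a line difference of −3.60 ± 0.19 (limma adjusted p = 6.03e-05). FBLN5, an elastic fibre protein gene, was the other member with a negative difference (−1.14, 3 of 8 fits). LUM, a keratan sulfate proteoglycan gene, stood at 5.30 and 8.27 FPKM and then 15.3 and 25.6 FPKM in COLO858 and at 52.2 and 73.3 FPKM and then 17.9 and 26.4 FPKM in MMACSF. It differed by 2.91 ± 0.45 (limma adjusted p = 0.00554; 2 of 8 fits), with neither line past the threshold on its own.

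Of 22 collagens and collagen-modifying enzymes tested, 7 differed positively and 1 negatively (36.4%; 9 and 7 with the block); when 1 library was left out, 4 to 6 positive differences passed. COL11A1 rose in COLO858 from 27.4 and 32.5 FPKM to 256 and 295 FPKM and stayed at or below 0.0364 FPKM in MMACSF, a line difference of 3.16 ± 0.22 (limma adjusted p = 0.000194). COL5A2 (2.95), COL3A1 (2.71), COL5A3 (2.70) and COL16A1 (2.04, 6 of 8 fits) had the same direction, and the lysyl oxidase LOXL4 fell in COLO858 (−2.04). Fibroblast markers, summed over 8 genes, lay between 9.83 and 12.6 FPKM under DMSO and between 26.4 and 36.4 FPKM after 48 h in COLO858. In MMACSF the sum lay between 58.0 and 79.3 FPKM and then 20.2 and 29.1 FPKM. Most of this sum was LUM, at means of 6.78 and then 20.5 FPKM in COLO858 and 62.8 and then 22.2 FPKM in MMACSF. Of the 22 collagens and enzymes, 9 rose and 2 fell in COLO858. In MMACSF 1 rose and 2 fell. Of the 7 markers tested 4 differed (LUM, COL3A1, COL1A1 and DCN, all of them matrix genes of these lists), COL1A1 and DCN in 1 of 8 fits each. Of the 8 markers PDGFRA alone stayed below 1 FPKM in all 8 libraries, while in COLO858 the mean of PDGFRB was 0.939 FPKM under DMSO and 1.45 FPKM after 48 h, that of THY1 was 0.317 and 1.11 FPKM, and that of COL1A2 was 2.62 and 0.113 FPKM. COL3A1, COL1A1, PDGFRB and THY1 reached a mean of 1 FPKM only in COLO858 after 48 h, COL3A1 at 6.56 FPKM and COL1A1 at 1.35 FPKM. They were tested through the group where they were high, so the shares of collagens and of fibroblast markers depend in part on the minimum. A part of other cells in the result was not tested. Of 17 basement membrane genes 3 differed (17.6%; 8 positively and 3 negatively with the block). LAMC1 (1.73) and NID2 (1.10, 1 of 8 fits) rose in COLO858, and LAMA1 (1.68) fell in MMACSF from 37.1 and 35.2 FPKM to 7.58 and 7.60 FPKM.

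Among 28 proteases of the metalloproteinase and plasminogen systems and their inhibitors, 9 differed positively and 3 negatively (42.9%). PLAT, tissue plasminogen activator, rose in COLO858 from 30.4 and 32.2 FPKM to 325 and 333 FPKM and fell in MMACSF from 379 and 386 FPKM to 237 and 236 FPKM, a line difference of 4.04 ± 0.15 (limma adjusted p = 2.95e-05). TIMP3, an inhibitor of metalloproteinases held in the matrix, moved in the same 2 directions, from 60.0 and 63.4 FPKM to 489 and 561 FPKM and from 203 and 227 FPKM to 112 and 125 FPKM, and differed by 3.92 ± 0.18. ADAM23 rose in COLO858 with a line difference of 3.21, while the collagenase MMP1 fell there (−2.22, 6 of 8 fits).

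Integrins split. Of 36 integrin and focal adhesion genes, 5 differed positively and 5 negatively (27.8%; 14 and 6 with the block). CAV1, caveolin-1, rose in COLO858 from 5.91 and 7.21 FPKM to 81.2 and 106 FPKM and stood at 35.7 and 45.7 FPKM and then 42.3 and 53.9 FPKM in MMACSF, a line difference of 3.40 ± 0.29 (limma adjusted p = 0.000471). The collagen receptor ITGA1 (2.72), the fibronectin receptor ITGA4 (2.60) and vinculin, VCL (1.75, 5 of 8 fits), had the same direction, and NEDD9 (1.33) passed in 0 of 8 fits that left out 1 library. ITGB3, the β3 subunit of the vitronectin receptor, fell in COLO858 from 167 and 181 FPKM to 15.5 and 15.0 FPKM and stood at 63.8 and 75.3 FPKM and then 41.3 and 46.4 FPKM in MMACSF, a line difference of −2.78 ± 0.19. ITGA10 (−2.67), ITGA9 (−2.58) and ITGA11 (−1.47) fell in COLO858 alone. ITGB1 and PTK2 (focal adhesion kinase) gave line differences of 0.64 ± 0.37 and −0.05 ± 0.22 that did not pass (limma adjusted p = 0.316 and 0.925; 0.00039 and 0.626 with the block).

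Of 34 actomyosin genes and targets of SRF or YAP, 7 differed, all positively (20.6%; 21 positively and 4 negatively with the block). The myosin light chains MYL9 and MYL6 rose in COLO858, the former from 5.10 and 3.47 FPKM to 43.6 and 35.0 FPKM with at most 0.151 FPKM in MMACSF, and differed by 2.84 and 2.59. ACTB, β-actin, instead fell in MMACSF, from 1720 and 1590 FPKM to 489 and 437 FPKM, and stood at 2510 and 2250 FPKM and then 3250 and 3020 FPKM in COLO858, with a line difference of 2.23 ± 0.18. Actin has many processed pseudogene copies, which can take part of its reads.

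Glial genes rose further in COLO858. Of 19 glial and myelin genes tested, 14 rose and 1 fell in COLO858 and 8 rose and 4 fell in MMACSF, and the line difference was positive for 6 and negative for 1 (36.8%; 13 and 4 with the block). The same 6 passed with each library left out in turn. NGFR (chr17:47572655-47592370, plus strand), the low-affinity receptor of nerve growth factor, rose in COLO858 from 2.89 and 2.82 FPKM to 49.9 and 39.8 FPKM and fell in MMACSF from 3.86 and 2.35 FPKM to 0.861 and 0.594 FPKM, a line difference of 4.79 ± 0.31 (limma adjusted p = 0.000147). S100B (chr21:48018517-48025121, minus strand), a calcium-binding protein of glia and melanocytes, rose in COLO858 from 113 and 113 FPKM to 996 and 1040 FPKM and stood at 857 and 782 FPKM and then 706 and 640 FPKM in MMACSF, a line difference of 3.44 ± 0.16. PMP2, the fatty acid binding protein of myelin, rose in COLO858 from 0.689 and 1.17 FPKM to 25.8 and 48.1 FPKM, stood between 0.96 and 1.56 FPKM in MMACSF, and differed by 4.16 ± 0.42. NES (nestin, 2.24) and MBP (1.86) were positive and MAG, a myelin-associated glycoprotein gene, fell in COLO858 (−2.18, 4 of 8 fits).

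**Figure D4:**
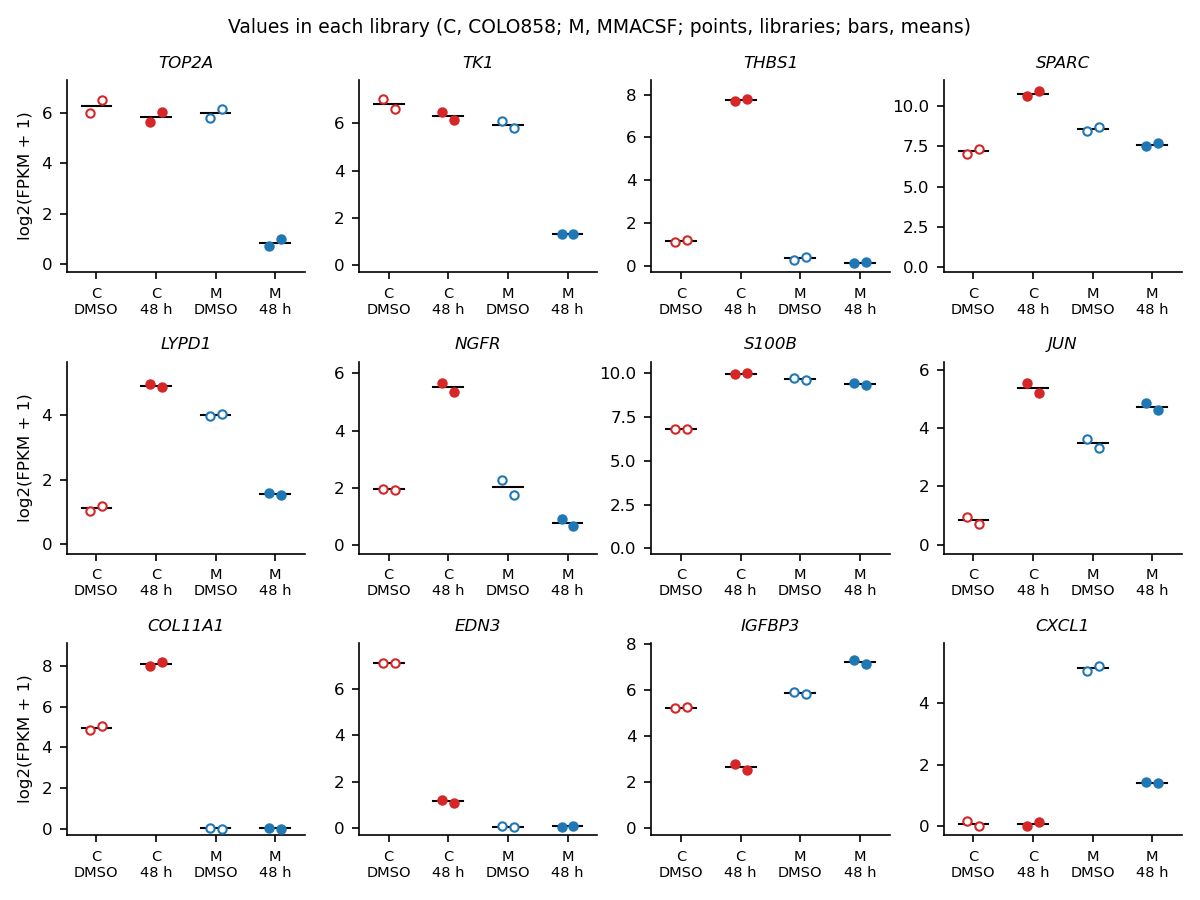
Level of 12 genes in each of the 8 libraries (log2(FPKM + 1); points are libraries and bars group means) under DMSO and after 48 h in COLO858 and in MMACSF. TOP2A and TK1 drop far in MMACSF and little in COLO858, THBS1, S100B and COL11A1 climb in COLO858, SPARC, LYPD1 and NGFR climb in COLO858 and drop in MMACSF, EDN3 drops in COLO858 and CXCL1 in MMACSF.

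Of 18 neural adhesion molecules, 7 differed, all positively (38.9%; 3 or 4 when 1 library was left out, and 11 and 1 negative with the block). CNTN6 (contactin-6) rose in COLO858 from 0.518 and 0.676 FPKM to 10.3 and 15.5 FPKM and lay at or below 0.0718 FPKM in MMACSF, with a line difference of 3.03 ± 0.25 (limma adjusted p = 0.00043). ALCAM (2.51), NCAM2 (2.14) and CHL1 (1.80, 0 of 8 fits) rose in COLO858 alone, L1CAM (1.52, 0 of 8 fits) rose in both lines and NRCAM (1.87, 2 of 8 fits) fell in MMACSF. NCAM1 and MAP2, a dendritic microtubule protein gene, also rose in COLO858, but their line differences of 1.01 ± 0.21 and 1.68 ± 0.32 did not pass (limma adjusted p = 0.0177 and 0.0129; 0.000425 and 0.000137 with the block). Among guidance molecules, 6 of 46 differed positively and 2 negatively (17.4%; 12 each with the block). The semaphorins SEMA3D (3.57) and SEMA3E (2.32, 5 of 8 fits) and the plexin PLXNB3 (2.32, 3 of 8 fits) rose in COLO858, and SEMA3F (−2.36, 7 of 8 fits) fell there.

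Of 24 genes of the neuronal cytoskeleton 5 differed positively and 2 negatively (29.2%; 12 and 5 with the block), most of them tubulins. TUBA1A, the tubulin of young neurons, rose in COLO858 from 30.5 and 34.1 FPKM to 448 and 499 FPKM and stood at 68.1 and 66.7 FPKM and then 60.6 and 61.6 FPKM in MMACSF, a line difference of 3.97 ± 0.17 (limma adjusted p = 4.7e-05). TUBA1B and TUBB4B, tubulins of most dividing cells, fell in MMACSF, TUBA1B from 413 and 389 FPKM to 42.5 and 40.2 FPKM, and differed by 2.80 and 2.23. These genes are close in sequence, so reads could be split between them. The neurofilament gene NEFL (−2.00) and TUBA4A (−1.38, 1 of 8 fits) fell in COLO858.

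Of 18 pigmentation genes, 8 rose in COLO858 and 5 rose and 2 fell in MMACSF, and 6 differed positively and 1 negatively (38.9%; 9 and 4 with the block). PMEL, the scaffold of pigment granules, rose in COLO858 from 65.9 and 63.3 FPKM to 485 and 534 FPKM, stood at 7950 and 7940 FPKM and then 11400 and 11700 FPKM in MMACSF, and differed by 2.42 ± 0.16 (limma adjusted p = 0.000154). DCT, which makes eumelanin precursors, rose in both lines (1.84), as did GPNMB (1.66, 4 of 8 fits), while TYR, tyrosinase, rose in MMACSF alone (−1.23, 0 of 8 fits) and was below 1 FPKM in COLO858. MITF, the master regulator of this program, had changes of −0.00 and 0.20 and a line difference of −0.20 ± 0.36 (limma adjusted p = 0.784; 0.039 with the block). Of 22 neural crest transcription factors, 2 differed positively and 4 negatively (27.3%; 6 and 8 with the block). SNAI2 (1.70, 1 of 8 fits) and TFAP2A (1.46, 1 of 8 fits) rose in both lines but more in COLO858. SOX8 (−2.04, 2 of 8 fits), SOX11 (−1.64), LEF1 (−1.53, 0 of 8 fits) and ZIC1 (−0.89, 0 of 8 fits) fell in COLO858.

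Outputs of ERK fell in both lines. Of 23 MAPK output and feedback genes tested, 14 fell in COLO858 and 16 in MMACSF, with medians of −1.48 and −1.25. Of the 23, 1 differed positively and 3 negatively (17.4%; 5 and 9 with the block). SPRY4, a sprouty inhibitor of the pathway, fell from 271 and 277 FPKM to 8.34 and 8.12 FPKM in COLO858 and from 35.1 and 36.4 FPKM to 4.26 and 4.64 FPKM in MMACSF, a line difference of −2.14 ± 0.17 (limma adjusted p = 0.000346). SPRY1 (−1.44) and DUSP4 (−1.11) also fell more in COLO858 and FOSL1, an AP-1 factor, fell more in MMACSF (1.56), but these 3 passed in 0 of 8 fits that left out 1 library. FOSL1 is a member of the AP-1 list as well.

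The AP-1 factors diverged. Of 13 tested, 5 differed positively and 1 negatively (46.2%; 9 and 2 with the block). JUN (chr1:59242517-59249720, minus strand), which responds to the stress kinase JNK, rose in COLO858 from 0.956 and 0.643 FPKM to 45.6 and 36.0 FPKM and in MMACSF from 11.4 and 9.03 FPKM to 27.8 and 23.7 FPKM. Both lines rose without overlap of their groups, and the line difference was 3.28 ± 0.27 (limma adjusted p = 0.000425). ATF3 (2.84) and FOSL2 (2.83) rose in COLO858 alone, with ATF3 going from 2.56 and 3.77 FPKM to 24.2 and 28.3 FPKM while MMACSF stood between 4.21 and 5.22 FPKM. MAFF, a small MAF protein gene, fell in both lines and more in MMACSF (2.36, 4 of 8 fits), and BATF3 fell in COLO858 (−1.28, 1 of 8 fits). The letters of an AP-1 site (TGANTCA) stood in 12 of 168 promoters of the genes that rose in COLO858 alone (7.14%), against 7.76% of all promoters and 4.37% of the 10192 of genes tested.

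Growth factors and their receptors gave few differences in number. The shares were 13.3% of receptor tyrosine kinases, 15.0% of their ligands and 13.2% of TGF-β and BMP genes, against 6.73% of all genes tested. Of 15 receptor tyrosine kinases 2 differed (2 positively and 5 negatively with the block): FGFR4 (−2.01, 1 of 8 fits) and AXL (−1.21, 0 of 8 fits) fell in COLO858, AXL from 7.22 and 7.25 FPKM to 2.72 and 2.64 FPKM with 0.438 to 0.557 FPKM in MMACSF. EGFR and PDGFRB, at no more than 2.20 FPKM in any of the 8 libraries, had line differences of −0.83 ± 0.25 and 0.33 ± 0.14 that did not pass (limma adjusted p = 0.0719 and 0.178; 0.0296 and 0.097 with the block). TGFA, a ligand of EGFR, fell in COLO858 from 45.6 and 56.3 FPKM to 3.82 and 4.45 FPKM and stood between 1.81 and 2.65 FPKM in MMACSF, a line difference of −3.57 ± 0.24 (limma adjusted p = 0.000183). KITLG (2.18, 0 of 8 fits) and PDGFC (1.83, 1 of 8 fits) rose in COLO858. Of 38 genes of the TGF-β and BMP pathway, 3 differed positively and 2 negatively (11 and 7 with the block): TGFB2 (2.22) and SMAD7 (1.18, 0 of 8 fits) rose in COLO858, and TGFBR2 rose in both lines, from 6.60 and 7.60 FPKM to 108 and 129 FPKM and from 23.7 and 30.1 FPKM to 127 and 139 FPKM (1.61, 2 of 8 fits). BMP6 (−1.05, 0 of 8 fits) and ID4 (−1.80, 1 of 8 fits) fell in COLO858.

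The most negative line differences belonged to genes lowered in COLO858. EDN3 (chr20:57875498-57901047, plus strand), endothelin-3, a growth factor of melanocyte precursors, fell in COLO858 from 138 and 139 FPKM to 1.32 and 1.14 FPKM and lay between 0.0391 and 0.0544 FPKM in MMACSF, and its line difference of −5.97 ± 0.19 was the lowest of all genes tested (limma adjusted p = 1.51e-05). NPR1, a receptor of natriuretic peptides, fell from 34.5 and 27.8 FPKM to 0.212 and 0.242 FPKM and differed by −4.62 ± 0.19. UTS2, the vasoactive peptide urotensin-2, fell from 28.0 and 32.6 FPKM to 0.512 and 0.714 FPKM and was listed at 0 in all 4 MMACSF libraries (−4.28 ± 0.19). SLC27A3 (−4.68), SYTL5 (−3.78) and the decoy FGF receptor FGFRL1 (−3.69) fell in COLO858 alone too. TMEM158 (−3.68, 3 of 8 fits) and the histone gene HIST1H2BH (−4.01, 1 of 8 fits) were less stable, and the latter ranged from 1.07 to 5.14 FPKM between the treated MMACSF replicates.

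The genes of the amino acid response driven by ATF4, a factor of the integrated stress response, lay mostly on the negative side. Of 26 genes of the ATF4 amino acid response, 15 fell in COLO858 and 6 in MMACSF. The line difference lay below 0 for 22 of them, as it did for 6960 of all 13022 genes tested. Of the 26, 4 differed, all negatively (2 positively and 16 negatively with the block), 15.4% against 6.73% of all genes tested. ATF4 itself fell in COLO858 from 461 and 485 FPKM to 222 and 230 FPKM and rose in MMACSF from 242 and 220 FPKM to 439 and 439 FPKM, a line difference of −1.99 ± 0.16 (limma adjusted p = 0.000344). CBS (−2.49, 3 of 8 fits), ASNS (−1.62, 1 of 8 fits) and PHGDH (−1.24, 0 of 8 fits), enzymes of cysteine, asparagine and serine synthesis, were lowered more in COLO858. Of 32 glycolysis and hypoxia genes, 1 differed positively and 4 negatively (9 and 11 with the block), 15.6% of the list. The lactate exporter SLC16A3 (−2.61, 4 of 8 fits), NDRG1 (−2.33, 7 of 8 fits), CA12 (−1.65) and hexokinase HK2 (−1.36, 0 of 8 fits) differed negatively and PKM2 positively (1.22, 0 of 8 fits).

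Ribosomal protein genes gave small differences of a single sign. All 58 tested had a line difference below 0, with a median of −0.79, made of a median of −0.69 in COLO858 and 0.09 in MMACSF. Only RPL12 (−1.26, 1 of 8 fits) and RPL13 (−1.02, 0 of 8 fits) passed, 3.45% of the list, while all 58 passed with the block. After rescaling the libraries within each line by their median ratio, which moved the median of all genes from −0.04 to 0.03, the median of the list was −0.70. These genes have many processed pseudogenes and short transcripts, for which FPKM are least certain.

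MMACSF moved alone for several immune genes. CXCL1 (chr4:74735110-74737025, plus strand), a chemokine that draws neutrophils, fell in MMACSF from 32.6 and 36.1 FPKM to 1.68 and 1.61 FPKM and was at most 0.108 FPKM in COLO858, a line difference of 3.73 ± 0.19 (limma adjusted p = 5.62e-05). Of 16 genes of antigen presentation, 6 differed, all positively, 37.5% against 6.73% of all genes tested (8 positively with the block). All 6 fell in MMACSF alone. CD74, the invariant chain of MHC class II, fell there from 1120 and 941 FPKM to 313 and 290 FPKM and was at most 0.635 FPKM in COLO858 (1.88 ± 0.21, limma adjusted p = 0.00132; 7 of 8 fits). CIITA, the switch of these genes, fell from 9.35 and 7.89 FPKM to 2.38 and 1.82 FPKM (1.67, 7 of 8 fits), and HLA-DQA1 (1.74), HLA-DQB1 (1.44, 1 of 8 fits) and HLA-DRA (1.08, 7 of 8 fits) went with it. HLA genes vary between people and resemble each other, which makes their values uncertain. In the NF-κB and cytokine list, TNFAIP3 fell in both lines but more in COLO858 (−2.23), IL11 fell in COLO858 (−1.95) and SOCS3 fell in MMACSF (2.08, 1 of 8 fits). Of 40 interferon-stimulated genes only GBP1 differed (1.41, 2 of 8 fits), 2.5% of the list.

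Genes that rose in MMACSF alone were mostly small steps, with a median of 1.25 in MMACSF and −0.11 in COLO858. SEC14L5, a lipid transfer protein gene, rose from 0.28 and 0.316 FPKM to 7.20 and 7.45 FPKM in MMACSF and was at most 0.35 FPKM in COLO858 (−2.56 ± 0.16, limma adjusted p = 0.000119). SNHG7, a noncoding host gene of small nucleolar RNAs, rose there from 74.2 and 55.6 FPKM to 302 and 247 FPKM and stood at 81.2 and 57.6 FPKM and then 39.7 and 38.6 FPKM in COLO858 (−2.86 ± 0.30). FAM69C rose from 0.743 and 0.56 FPKM to 7.26 and 6.23 FPKM (−2.35). Among lysosomal genes 4 of 53 differed (25 positively and 9 negatively with the block), 7.55%, near the 6.73% of all genes tested. Of these, ATP6V0D2, a proton pump subunit, fell in MMACSF from 7.89 and 9.47 FPKM to 0.332 and 0.551 FPKM (2.77 ± 0.21), and CTSB and PSAP (1.16 and 1.11) each passed in 0 of 8 fits.

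In 29 and 17 genes the lines moved in opposite directions, counts that were 7 to 20 and 2 to 6 with 1 library left out and 241 and 298 with the block. LYPD1 (chr2:133400859-133429152, minus strand), a small protein of the Ly6 family that tunes acetylcholine receptors, rose in COLO858 from 1.05 and 1.27 FPKM to 30.5 and 28.4 FPKM and fell in MMACSF from 14.6 and 15.3 FPKM to 1.97 and 1.89 FPKM. The groups of both lines lie apart, and the line difference was 6.26 ± 0.20 (limma adjusted p = 1.51e-05). PHLDB2, which anchors microtubules at the cell edge, rose in COLO858 from 1.19 and 1.48 FPKM to 32.2 and 39.9 FPKM and fell in MMACSF from 6.31 and 8.35 FPKM to 2.10 and 3.40 FPKM (5.14 ± 0.32). TNFRSF21, death receptor 6, followed (2.48). In the other direction, IGFBP3 (chr7:45951844-45961473, minus strand), a carrier of insulin-like growth factors, fell in COLO858 from 36.2 and 37.0 FPKM to 5.95 and 4.72 FPKM and rose in MMACSF from 59.5 and 56.5 FPKM to 157 and 141 FPKM, a line difference of −3.92 ± 0.20 (limma adjusted p = 5.62e-05). EYA1, a developmental phosphatase (−3.02 ± 0.30), and FAM83G (−2.51 ± 0.26) did the same at lower levels.

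Some large differences lay in genes that both lines moved the same way. CRYAB, a small heat shock chaperone, rose in COLO858 from 0.366 and 0.164 FPKM to 56.3 and 61.2 FPKM and in MMACSF from 248 and 251 FPKM to 426 and 425 FPKM, a line difference of 4.80 ± 0.18 (limma adjusted p = 2.95e-05). It was the single member of 29 heat shock genes that passed (3.45%; 17 positive and 3 negative with the block). OLFML2A, a matrix-binding protein gene, rose in both lines as well (3.93), and GJB1, connexin-32, fell in both, from 40.4 and 32.5 FPKM to 0.523 and 0.181 FPKM in COLO858 and from 53.5 and 48.9 FPKM to 11.3 and 8.61 FPKM in MMACSF (−2.53 ± 0.29). FAM129A (4.76) and FAM19A3 (4.70) rose in COLO858 alone from levels near 1 FPKM or below.

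Other lists gave few differences between the lines without the block. Of 43 genes of MYC and ribosome biogenesis, 27 fell in COLO858 and 11 in MMACSF, with medians of −1.03 and −0.67, and none differed in the limma test (2 positively and 14 negatively with the block). Of 34 cholesterol and fatty acid genes, 20 and 21 fell, with medians of −1.10 and −1.23, and 2 differed, TM7SF2 (1.91, 2 of 8 fits) and SCD (−1.62, 0 of 8 fits), with 8 positive and 6 negative with the block. Aminoacyl-tRNA synthetases (35 tested) and the Notch pathway (21 tested) gave no gene past the threshold without the block, and with it 2 of each were positive and 14 and 8 negative. Of 55 genes of oxidative phosphorylation 1 differed, ATP5G1 (1.07, 0 of 8 fits), and 25 positively and 2 negatively with the block, with 47 of 55 above 0 at a median of 0.31. Over all genes tested, 6062 of 13022 lay above 0. Of 29 genes of the unfolded protein response only CALR passed (1.02, 0 of 8 fits), against 14 positive and 2 negative with the block. Of 31 BCL2 family and death receptor genes FAS and TNFRSF21 passed (9 and 6 with the block), and of 31 Wnt genes LEF1 and NOTUM (−1.14, 1 of 8 fits; 5 and 9 with the block). Both shares, 6.45%, were near the 6.73% of all genes tested.

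The libraries taken at 24 h show when the differences arose. The 24 h and the 48 h responses share the DMSO libraries, so their values are set side by side and the change between them was tested in a fit of all 12 libraries. The line difference moved up between 24 and 48 h for 365 of 13192 genes tested there (2.77%) and down for 72 (0.546%), 3.31% together; with the block the counts were 1280 (9.7%) and 1035 (7.85%), 17.5% together. Mitotic genes had a median line difference of −0.37 at 24 h and 2.54 at 48 h, and 53 of 57 changed upward, and replication genes went from −0.82 to 1.23, with 38 of 50 changed upward. TOP2A stood at 10.6 and 13.4 FPKM in COLO858 and at 7.01 and 9.11 FPKM in MMACSF at 24 h, below its DMSO level in both lines, and its line difference of 0.25 at 24 h was 4.67 at 48 h (change of 4.42, limma adjusted p = 9.59e-05). In COLO858 the 48 h level was again near that of DMSO and in MMACSF it had dropped further.

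**Figure D5:**
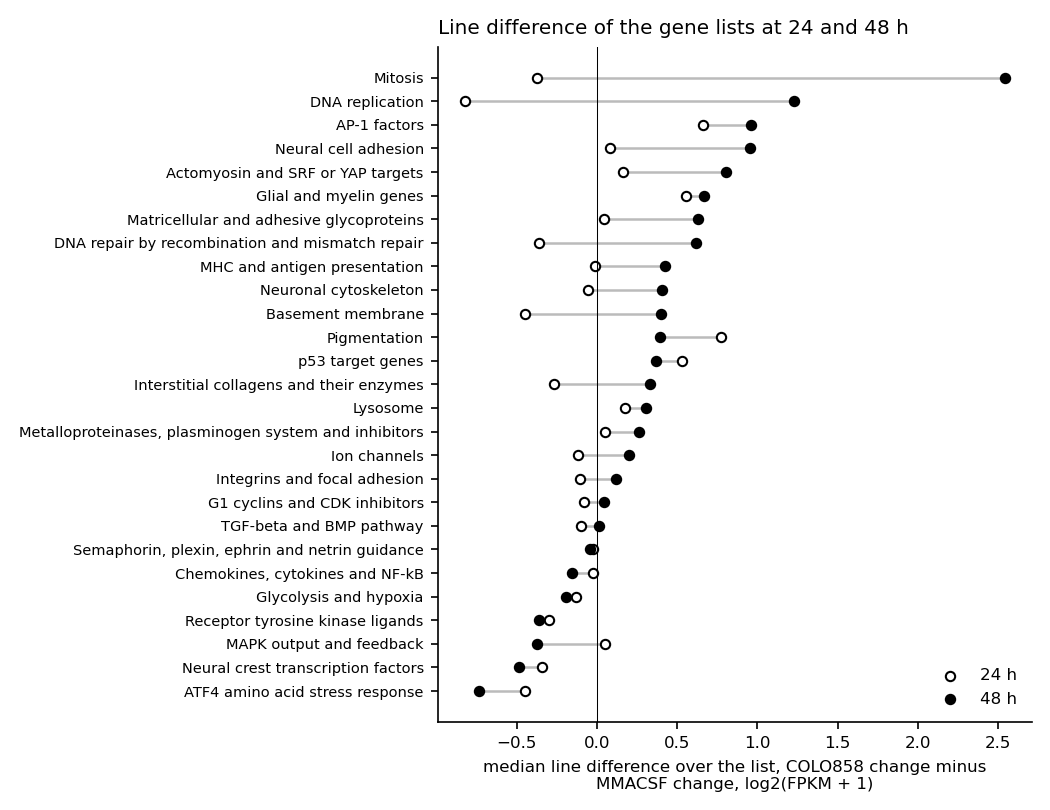
Median line difference of each gene list with at least 3 called members at 24 h (open symbols) and at 48 h (filled symbols), in log2(FPKM + 1). The mitotic list moves from −0.37 to 2.54 and the replication list from −0.82 to 1.23, while most other lists stay within a narrower range.

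Genes that fell in COLO858 alone had a median line difference of −1.26 at 24 h and −1.59 at 48 h, and 24 of 229 changed further in that direction. The genes of each class set out here were chosen for their difference at 48 h, and both times share the DMSO libraries. The change to 48 h reuses the 48 h libraries, so a move further in the same direction is partly built in. Over all genes tested there, 2.77% moved up and 0.546% moved down. Genes that rose in COLO858 alone had a median of 0.91 at 24 h and 1.74 at 48 h, and 73 of 222 changed further, among them THBS1, with 45.2 and 44.2 FPKM at 24 h in COLO858 and a line difference of 4.37 that was 6.79 at 48 h. NGFR moved late: at 24 h it stood at 1.96 and 1.36 FPKM in COLO858 and at 0.529 and 0.357 FPKM in MMACSF, lower than under DMSO in both, and its line difference went from 0.94 to 4.79 (limma adjusted p = 9.75e-05). CRYAB stood at 1.36 and 1.53 FPKM in COLO858 at 24 h, so that most of its rise fell between 24 and 48 h. Genes that fell in MMACSF alone had a median line difference of 0.14 at 24 h and 2.04 at 48 h, and 103 of 168 changed further. CD74, CIITA and HLA-DQA1 were among the genes of MMACSF that fell late, with line differences of −0.10, 0.07 and −0.67 at 24 h, whereas CXCL1 had reached 3.53 of its 3.73 by 24 h. GJB1 had fallen to 5.86 and 5.20 FPKM in COLO858 and to 10.1 and 8.37 FPKM in MMACSF by 24 h and stood at 0.523 and 0.181 FPKM and at 11.3 and 8.61 FPKM at 48 h, and its line difference went from −0.16 to −2.53.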

How the data were processed

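RNA was measured by stranded mRNA sequencing with single reads of 50 bases. The values are FPKM deposited by the authors, 1 table per cell line, for which, per the labels, default TopHat alignments to hg19 were quantified by Cuffdiff in Galaxy; tool versions and strand settings are not given in the sources used here. All columns belong to a library of the series, and the tables hold no comparisons by the authors. FPKM carry no depth, so the depth per library is unknown and no counting error could be given; steps between low values gave relative depths that differed by at most 1.84-fold between DMSO and 48 h libraries of the same replicate number.

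The lines were joined by gene symbol and 1632 small RNA genes left out, since MIR4461 alone took 14.1% to 35.9% of the FPKM of a library and that share differed between replicates. Genes with a mean of at least 1 FPKM in any of the 4 groups were fitted on log2(FPKM + 1) with limma 3.58.1 (R 4.3.3; trended prior, 4 group means, difference of the 48 h responses as contrast), with the two-sided p adjusted by Benjamini-Hochberg over all genes tested and a threshold of 0.01. Adding 1 understates the change of low genes. The fitting code was tested on made-up data with known answers, in which 200 of 13022 genes were given a line difference. At a size of 1 on the log2 scale 0 of the 200 passed, and at a size of 2 166 did, with 0 and 4 false calls. A gene that did not pass may therefore still differ. The made-up noise was independent between libraries, whereas real libraries of the same replicate number deviated together. The counts thus check the code and do not give the error rates of the real fit. The change from 24 to 48 h was tested in a fit of all 12 libraries. Python 3.11.15 made the joins and figures. Promoters and motif matches come from RefSeq's table for GRCh38.p14, gene positions from GENCODE for GRCh37.

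Named are the 10 largest differences in each direction among called genes, up to 4 called members of each of 40 lists, the 3 largest of each class, and genes the study discusses; members given with the difference alone are further called members of a list. Some genes that this rule names are not reported here. The genes and lists were chosen with earlier results of these data known. Deviations from the group mean correlated between DMSO and 48 h libraries of the same number at 0.78 in COLO858 and 0.678 in MMACSF, in both replicate numbers, which mirror each other with 2 libraries per group. The replicate numbers come from the labels, which do not say what they share, and the block was fitted as an alternative. Other alternatives were another added constant, other minimum levels, a fit of all 12 libraries, rescaling, no trend, small RNA genes kept, a threshold of 0.05 and leaving out each library.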

Additional observations from a re-analysis of the deposited data

Results flagged for a closer look

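The lines differed in their 48 h response by the limma test of the difference itself, and each result below was picked out for that reason. The difference was positive for 504 genes and negative for 372 genes. In 29 genes COLO858 rose and MMACSF fell, led by LYPD1 (line difference 6.26), PHLDB2 (5.14) and NGFR (4.79), and in 17 genes COLO858 fell and MMACSF rose, led by IGFBP3 (−3.92), EYA1 (−3.02) and FAM83G (−2.51). With 1 library left out the 29 and 17 became 7 to 20 and 2 to 6, and with the block 241 and 298. These 6 genes passed in all 8 fits that left out 1 library. Their adjusted p lay between 1.51e-05 and 0.00111 (limma). No group had the 4 samples that a check for a single outlying library needs.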

How the results depend on the processing

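No named gene that passed changed sign under any alternative, while the differences of MITF and PTK2, and after adding 0.01 FPKM that of PDGFRB, which did not pass, did. Positive differences outnumbered negative ones except with the replicate block and at a threshold of 0.05. The median line difference changed sign for 3 lists without a minimum (guidance, TGF-β and Wnt), for 2 with a minimum of 10 FPKM (receptor tyrosine kinases and ion channels), for 2 after rescaling (guidance and Notch) and for 0 to 4 when 1 library was left out. The number of positive differences (504) stayed within 1.5 times except with the replicate block (2213), at a threshold of 0.05 (961) and when 1 library was left out (209 to 334). The number of negative differences (372) was 243 after adding 0.1 FPKM, 182 after adding 0.01 FPKM, 179 with a minimum of 10 FPKM, 147 with a minimum of 1 FPKM in a group of each line, 2260 with the block, 982 at a threshold of 0.05 and 118 to 222 when 1 library was left out, each of which has fewer libraries per group. The share of positive differences was 57.5%, 64.4% after rescaling, 65.5% and 68.3% after adding 0.1 or 0.01 FPKM, 67.7% and 70.4% with these minimum levels, and 49.5% with the block and at 0.05. List members that passed numbered 235, 717 with the block, 412 at 0.05 and 112 to 169 when 1 library was left out. The share of called genes with COLO858 alone past the threshold was 51.5%, 33.7% with the block and 53.3% to 60.2% when 1 library was left out, and that with MMACSF alone was 30.0% and 28.8% to 34.3%. The change from 24 to 48 h (365 up, 72 down) passed for 1280 and 1035 genes with the block, 618 and 242 at 0.05 and 183 to 273 and 14 to 29 when 1 library was left out, and for 44 downward with the minimum in each line. Of the 153 named calls, 43 were lost after adding 0.01 FPKM, 22 after adding 0.1 FPKM, 30 without a minimum, 30 with small RNA genes kept, 11 after rescaling, 5 without the trend and 3 in the fit of 12 libraries, and the cause was not tested. The block lost none of them, and the pairing let a change pass within COLO858 for 27 further named genes and within MMACSF for 35. What could be found depended on the number of libraries per group and on whether the block was fitted. The median standard error of the difference was 0.262 without the block and 0.115 with it. The smallest difference that passed without the block was 0.766.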

Other observations

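Ion channels split between the lines. Of 31 tested, 3 differed positively and 3 negatively (19.4%; 8 each with the block). TRPM1, a channel gene whose intron holds a melanocyte microRNA, rose in COLO858 from 0.0758 and 0.306 FPKM to 4.91 and 6.68 FPKM and stood at 290 and 317 FPKM and then 326 and 352 FPKM in MMACSF, a line difference of 2.35 ± 0.24 (limma adjusted p = 0.00107). TRPM8, the cold receptor, fell in COLO858 from 10.6 and 13.9 FPKM to 0.891 and 0.969 FPKM and stood at 1.11 and 1.46 FPKM and then 0.425 and 0.419 FPKM in MMACSF (−2.09 ± 0.23, limma adjusted p = 0.00129). KCTD12 rose in COLO858 (1.40, 0 of 8 fits leaving out 1 library) and the potassium channel subunit KCNAB2 fell there (−1.85, 6 of 8 fits).

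For a few genes the line difference passed although neither line did alone. CERKL stood at 11.5 and 16.5 FPKM and then 22.8 and 37.5 FPKM in COLO858 and at 6.81 and 9.24 FPKM and then 2.78 and 2.51 FPKM in MMACSF (2.33 ± 0.39, limma adjusted p = 0.00741; 1 of 8 fits). NXPH4 (−2.15), ARRDC2 (−1.66) and RNF144A (−1.60) were lower after 48 h in COLO858 and higher in MMACSF, without passing in any fit that left out 1 library. SPRR2D, a cornified envelope gene, was listed at 0 in all 4 libraries at 48 h, after 8.40 and 12.2 FPKM in COLO858 and 0.928 and 1.43 FPKM in MMACSF under DMSO.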
